A study of Mus musculus with 3 samples.

Results

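Solute carriers are membrane proteins that move sugars, amino acids, ions, metals, nucleosides and other small molecules across the plasma membrane or across the membranes of organelles. They work by facilitated diffusion, by exchange of 1 solute for another, or by coupling to the gradient of an ion such as sodium. Growing lymphocytes depend on carriers for glucose and essential amino acids, and the carriers of the inner mitochondrial membrane link the cytosol with respiration. The transcripts described here are those of the probe sets, sets of short oligonucleotides that report 1 transcript, to which the array annotation gives exactly 1 gene symbol made of Slc followed by a digit. There were 177 such probe sets for 149 genes, out of 10276 probe sets with 1 symbol for 8220 genes. The choice used the gene names and no measured value. Slc9a3r1, Slc9a3r2 and Slc4a1ap carry such a name but encode binding partners of carriers, and they were kept as a class of adaptors.

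RNA came from LNC, a malignant B-1 cell line established from lymph node tissue of a New Zealand Black mouse 1 year of age, and total RNA was measured on 3 arrays. In the first group the cells had received an antisense oligonucleotide against IL-10 at 20 µM, in the second a scrambled version of it at 20 µM to control for effects of oligonucleotides as such, and in the third they were left untreated. RNA was taken at 24 h. Each group is 1 array, and the sources used here do not state whether an array held 1 culture or several pooled. No difference below has a replicate check, and none was tested. Il10 itself read 13946 on the array labelled antisense against 5616 (scrambled) and 5164 (untreated). The targeted RNA was thus highest where it was to be reduced, and every direction drawn from that array rests on its label.

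Values are probe set intensities after scaling each array to a common trimmed mean. Values below a noise floor of 595.9, which is 2 robust standard deviations of the values below 0, were set to it before log2 was taken, and a fold against a value at the floor is a lower bound. Differences are given on the log2 scale, the first array named minus the second. The yardstick for a difference is how far apart the controls lay: for the 300 probe sets of most similar level, 95% of the log2 differences of scrambled from untreated were smaller than it. This amounts to 2.28-fold for levels near 1000, to 1.80-fold near 2000 and to 1.26-fold near 16000, and it includes whatever the scrambled oligonucleotide did. Probe sets differ in how well they bind, so an intensity orders arrays for 1 probe set and does not order genes. The 6 bacterial spike-in controls below an intensity of 50000 averaged less on the array labelled antisense, at -0.63 on the log2 scale relative to untreated and -0.51 relative to scrambled. Scaling to them would raise the log2 differences of that array above the floor by as much, so each direction below is relative to the common level of the arrays. The ratio of 3-prime to 5-prime signal of 18S ribosomal RNA also moved with the groups, at 8.13 on the array labelled antisense against 4.48 (scrambled) and 1.72 (untreated), while that of Gapdh lay between 0.931 and 1.01. The part of both in the differences below was not tested. Of 8 B cell markers measured, 7 were above the floor on the 3 arrays, among them Ms4a1 and Cd79a. Relative to both controls, the array labelled antisense was lower for some of them by more than the yardstick: Ms4a1 by -0.51 from untreated and -0.53 from scrambled, Cd79a by -0.37 and -0.50, and Cd74 by -0.35 and -0.54, with no spike-in scaling applied. Other B cell markers did not share this: from untreated and scrambled, Cd79b differed by 0.11 and 0.15 and Blk by -0.09 and 0.44. Pax5 differed by -0.11 and -0.27, and each of these lay within its yardstick. Probe sets named Ighm lay on either side of the controls, and the part of the marker shifts in the carriers was not tested. Of 7 T cell markers 1 was above the floor on the 3 arrays, Cd4, while Cd3e, Cd3d and Cd3g lay below the floor, and of 6 fibroblast markers 1 was above it on the 3 arrays, Col1a1.

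Of the 177 Slc probe sets, 54 lay above the floor on the 3 arrays, which is 30.5% against 38.5% of all probe sets with 1 symbol. They stand for 48 genes. A further 29 probe sets were above the floor on 1 or 2 arrays and 94 on none, so 77 genes had no value above the floor in any group. By array, 66 Slc probe sets exceeded the floor on that labelled antisense, 37.3% against 44.8% of all, 64 with scrambled oligonucleotide, 36.2% against 45.2%, and 70 without oligonucleotide, 39.5% against 44.9%. Metals and mitochondrial carriers had 11 of 22 probe sets each above the floor on the 3 arrays, and nucleotide sugar carriers 5 of 12. Carriers of amino acids and peptides had 6 of 32, those of inorganic ions 5 of 22, and those of other organic solutes and lipids 4 of 32. A value below the floor does not show that a transcript is absent, since some probe sets of this first version of the array are known to be faulty. Of 25 genes with several probe sets, Slc19a1, Slc23a3, Slc2a3, Slc38a2 and Slc39a1 each had 1 probe set above the floor on the 3 arrays and another above it on none.

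**Figure D1:**
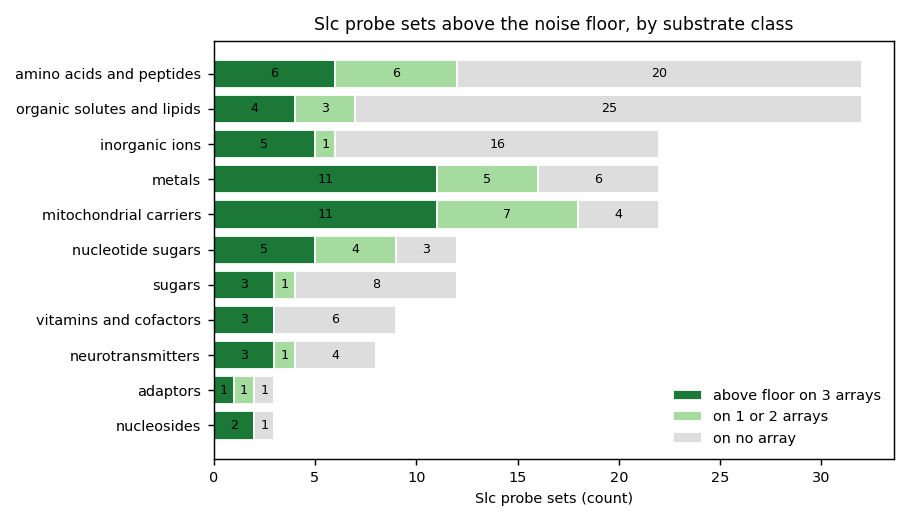
Number of Slc probe sets per substrate class, split into those above the noise floor on the 3 arrays, on 1 or 2 arrays and on none; each bar sums to the probe sets of that class. Metals and mitochondrial carriers had 11 of 22 above the floor on the 3 arrays, other organic solutes and lipids 4 of 32.

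Among amino acid carriers, both chains of the large neutral amino acid exchanger were far above noise. Slc3a2, which encodes the heavy chain CD98 that brings several light chains to the plasma membrane, read 20463 on the array labelled antisense against 19084 (scrambled) and 17160.3 (untreated). Slc7a5, which encodes the light chain LAT1 that carries leucine and other large neutral amino acids, read 14975 on the array labelled antisense against 13813 (scrambled) and 13285 (untreated). The 3 arrays lay close together for both: the array labelled antisense differed by 0.25 against untreated and 0.10 against scrambled for Slc3a2, and by 0.17 and 0.12 for Slc7a5, within the yardsticks of 0.33 and 0.33. Scaled to the spike-in controls, these became 0.88 and 0.61 for Slc3a2 and 0.80 and 0.63 for Slc7a5. They include the shift of 0.63 and 0.51 common to all probe sets above the floor. That shift alone exceeds both yardsticks, which were made without this scaling. Slc7a7, another light chain that pairs with CD98 and carries cationic amino acids, read 1328 on the array labelled antisense against 1163 (scrambled) and 1969 (untreated). Slc38a2, a sodium-coupled carrier of glutamine and alanine, read 2884 on the array labelled antisense against 2142 (scrambled) and 2765 (untreated) in 1 probe set, and its family probe set lay below the floor on each array. For these 4 genes no array differed from another by more than the yardstick without scaling to the spike-in controls.

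To show the sequence ahead of the CD98 gene, the 250 bases before its start are given from RefSeq on GRCm38.p6, 5′ to 3′, with capitals for matches on either strand to GGGCGG, to CCAAT, known as a CCAAT box, or to the E-box CACGTG. A window was listed for 122 of the 149 genes.
Slc3a2, chr19:8713898-8714147, minus strand: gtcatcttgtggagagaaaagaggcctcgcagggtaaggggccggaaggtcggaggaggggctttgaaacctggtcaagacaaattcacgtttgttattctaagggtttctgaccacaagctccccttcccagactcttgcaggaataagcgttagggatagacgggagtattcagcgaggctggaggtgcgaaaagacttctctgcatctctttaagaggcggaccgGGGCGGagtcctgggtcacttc
The letters hold 1 GGGCGG, a GC box of the kind bound by Sp1. GGGCGG was found on either strand in 32.7% of all 32851 windows of this length. TGATGNAA, a form of the element through which ATF4 acts on amino acid genes, was not in this window, and 3.45% of all windows hold it.

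Slc6a6 and Slc6a9 differed more among the arrays. Slc6a6, the sodium-coupled taurine carrier, read 2525 on the array labelled antisense against 3977 (scrambled) and 3872 (untreated) in its probe set above the floor on each array. The array labelled antisense was the low one, with log2 differences of -0.62 against untreated and -0.66 against scrambled, both within the yardstick of 0.66, and the first turned to 0.01 with scaling to the spike-in controls. Its other probe set read 759, 529 and 1436 on the same arrays, so there the scrambled array was the low one, at least 2.41-fold below untreated. The probe sets of Slc6a6 thus disagreed on which array was low. Slc6a9, the glycine carrier GlyT1, read 1467 on the array labelled antisense against 948 (scrambled) and 699.8 (untreated). The array labelled antisense was the high one, 2.1-fold that of untreated cells and 1.55-fold that of scrambled, both within the yardstick at this level. Slc1a4, a neutral amino acid exchanger, was above the floor on the scrambled and untreated arrays, and Slc1a6, Slc38a4, Slc3a1 and Slc6a20b on 1 array each. The glutamine exchanger gene Slc1a5 was below the floor on each array, at 471, 486 and 409. So were the cationic amino acid carrier Slc7a1, at -185, -156 and 115, and the cystine exchanger Slc7a11, at 41.2, -473 and -10.1. The others below the floor were the cationic amino acid carriers Slc7a2 and Slc7a3, the light chains Slc7a6, Slc7a8 and Slc7a9, and Slc1a1, Slc1a2, Slc15a2, Slc38a5, Slc38a10, Slc66a2, Slc6a15 and Slc6a18.

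Of the glucose carriers, Slc2a3 and Slc2a8 lay above the floor and Slc2a1 did not. Slc2a3 encodes GLUT3, a high-affinity glucose carrier, and its probe set above the floor read 1565 on the array labelled antisense against 1354 (scrambled) and 1305 (untreated). The other Slc2a3 probe set read 158, 12.8 and 29.9. Slc2a8, a hexose carrier of intracellular membranes, read 1483 on the array labelled antisense against 1877 (scrambled) and 1615 (untreated), and its family probe set was above the floor on the array labelled antisense alone. Slc50a1, the mammalian member of the SWEET family of sugar carriers, read 2605 on the array labelled antisense against 2788 (scrambled) and 2452 (untreated). For these 3 genes the differences from either control lay between -0.34 and 0.26, within the yardstick. Slc2a1, which encodes GLUT1, read 572, 42.4 and 466. The liver and muscle carriers Slc2a2 and Slc2a4, the fructose carrier Slc2a5, the sodium-coupled carriers Slc5a1 and Slc5a11 and the glucose-6-phosphate carrier Slc37a4 had no value above the floor either.

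The nucleoside carrier Slc29a1 was above noise in both its probe sets. It encodes ENT1, through which adenosine, thymidine and many nucleoside drugs enter cells by facilitated diffusion. The first read 12278 on the array labelled antisense against 10488 (scrambled) and 11399 (untreated). The second read 7039, 6388 and 6179 on the same arrays. In both probe sets the array labelled antisense was highest, by 0.11 and 0.19 against untreated and by 0.23 and 0.14 against scrambled, all within the yardsticks of 0.35 and 0.42. Scaled to the spike-in controls, they became 0.74 and 0.82 against untreated and 0.74 and 0.65 against scrambled. The common shift of 0.63 against untreated and 0.51 against scrambled is part of these values and alone exceeds the yardsticks. Slc29a2, which encodes ENT2, was below 0 on each array.

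Of the mitochondrial carriers, 9 of 19 genes were above the floor on the 3 arrays. Slc25a5 and Slc25a4 encode ADP/ATP carriers, which exchange mitochondrial ATP for cytosolic ADP. Slc25a5 read 16816 on the array labelled antisense against 17290.4 (scrambled) and 18046 (untreated), and its family probe set 11569, 11405 and 12361. The array labelled antisense differed by -0.10 and -0.04 from untreated and scrambled in the first and by -0.10 and 0.02 in the second. With scaling to the spike-in controls these became 0.53 and 0.47 and 0.53 and 0.53, beside the common shift of 0.63 and 0.51. Another probe set of Slc25a5, with the suffix _r, read 1668, 1068 and 1228 and differed by 0.44 and 0.64, within its yardstick of 1.20. Slc25a4 read 8923 on the array labelled antisense against 10584 (scrambled) and 12379 (untreated). The array labelled antisense was lowest, by -0.47 against untreated, beyond the yardstick of 0.35, and by -0.25 against scrambled, within it. With scaling to the spike-in controls these values turned to 0.16 and 0.27, below the common shift.

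Slc25a1, the citrate carrier that exports citrate for fatty acid and sterol synthesis, was lower on the array labelled antisense in both its probe sets, though not against untreated in the first with scaling to the spike-in controls. The first read 2786 on the array labelled antisense against 4808 (scrambled) and 4172 (untreated), log2 differences of -0.58 and -0.79 from untreated and scrambled against a yardstick of 0.62, so the second lay beyond it. The family probe set read 553, 917 and 1202, at least 2.02-fold lower than untreated and within its yardstick. With scaling to the spike-in controls the first probe set differed by 0.05 from untreated and -0.27 from scrambled. Since Slc25a1 was low in both probe sets, the 250 bases before its start are shown, from RefSeq on GRCm38.p6 with capitals as for Slc3a2.
Slc25a1, chr16:17928220-17928469, minus strand: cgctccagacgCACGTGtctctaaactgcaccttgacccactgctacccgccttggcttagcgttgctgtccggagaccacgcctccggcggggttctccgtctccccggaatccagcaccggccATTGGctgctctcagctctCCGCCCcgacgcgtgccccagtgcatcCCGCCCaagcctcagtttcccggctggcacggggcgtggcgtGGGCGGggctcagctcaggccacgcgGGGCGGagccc
They hold 1 CACGTG, an E-box that begins 239 bases before the start, 1 CCAAT and 4 GGGCGG on either strand, none of which overlap. CACGTG was in 6.02% and CCAAT in 33.8% of all windows. TCACNCCAC, a form of the sterol response element, was not in the Slc25a1 or the Slc3a2 window, and 1.05% of all windows hold it.

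Slc25a3, the mitochondrial phosphate carrier, read 204 on the array labelled antisense against 562 (scrambled) and 2197 (untreated). Both arrays with an oligonucleotide lay below the floor and at least 3.69-fold below untreated, beyond the yardstick, and the gene has a single probe set. Slc25a11, the oxoglutarate carrier, was above the floor only on the array labelled antisense, at 1061, 501 and 492 on the arrays labelled antisense, scrambled and untreated, and at least 1.78-fold over both, within the yardstick of 0.85. For a probe set above the floor on 1 array alone, that difference sets the mean level and so the yardstick, so lying within it says little. Slc25a10, the dicarboxylate carrier, was above the floor only on the untreated array, at -279.7, 585 and 899. The other mitochondrial carriers above noise stayed within the yardstick. Slc25a39, a carrier of glutathione into mitochondria, read 6475, 6320.4 and 5407 on the 3 arrays in the same order, and Slc25a20, the carnitine/acylcarnitine carrier, read 3124, 2938 and 2548. Slc25a15, the ornithine carrier, read 1741, 1386 and 2020.0. Slc25a28, which encodes mitoferrin 2 and brings iron into mitochondria, read 1724, 2189.6 and 2180.2. Slc25a36, a carrier of pyrimidine nucleotides, and Slc25a17, a member of the family that resides in peroxisomes, lay within 0.02 to 0.29 of either control. Slc25a44, Slc25a51 and Slc25a53 were above the floor on 1 array, and Slc25a14, Slc25a25, Slc25a47 and Slc25a48 on none.

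Among carriers of metals, those of zinc, copper and iron were above noise. Slc39a1, the zinc importer ZIP1, read 5639 on the array labelled antisense against 5572 (scrambled) and 5744 (untreated) and differed by -0.03 and 0.02 from untreated and scrambled, while its second probe set was below the floor. Slc39a7, which releases zinc from the endoplasmic reticulum, read 3995 on the array labelled antisense against 5117 (scrambled) and 5524 (untreated). The array labelled antisense was low, by -0.47 and -0.36 against a yardstick of 0.51, and higher than both controls by 0.16 with scaling to the spike-in controls. Slc39a6 and Slc39a9, other zinc carriers, lay between 697 and 1079 on the 3 arrays. Slc30a5, which moves zinc into the secretory pathway, read 3219, 3828 and 3318 on the arrays labelled antisense, scrambled and untreated in 1 probe set and 865, 815 and 1168 in another. Slc30a3, a carrier of zinc into vesicles, read 3460.3, 3350.3 and 2937. Slc31a1, the copper importer CTR1, read 3505, 3814 and 4424 in 1 probe set and 1358, 1990.3 and 1262 in another, in which the order of the arrays differed. Slc11a2, the iron and manganese carrier DMT1, read 2859.6, 3026 and 3037 and 806, 903 and 979.7 in its probe sets, with the array labelled antisense lowest in both, by -0.28 to -0.08, though highest with scaling to the spike-in controls. Its relative Slc11a1, a metal carrier of macrophages, was above the floor on the scrambled array alone, at -175, 759.9 and -74. Of 7 macrophage markers, Cd68 and Cd14 were above the floor on the 3 arrays, and Csf1r on the untreated array alone. Cd68 read 1331, 767 and 854 on the arrays labelled antisense, scrambled and untreated and Cd14 1088, 1563 and 2061, so Cd68 was highest and Cd14 lowest on the array labelled antisense. Adgre1, Itgam, Lyz2 and Marco were below 0 on each array. Summed over the list, values below 0 included, the intensity was 713 on the array labelled antisense against 1966 (scrambled) and 3352 (untreated). Values below the floor weigh in this sum, such as Adgre1 at -473, -233 and -184, so it does not order the arrays by macrophage signal. The part of such cells in the Slc11a1 signal was not tested.

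Slc41a1, a magnesium carrier, read 1267 on the array labelled antisense against 397 (scrambled) and 797 (untreated). The scrambled value is below the floor, so the array labelled antisense was at least 2.13-fold above scrambled, and 1.59-fold above untreated, both within the yardstick. Slc30a9 was above the floor on 2 arrays and Slc39a3 on 1. Of the probe sets of Slc39a4, 1 was above it on the untreated array alone and the other on none. Slc30a1, Slc30a4 and Slc39a8 were not above it.

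Of the carriers of inorganic ions, Slc9a8 differed most between oligonucleotides. Slc9a8 encodes NHE8, a sodium/proton exchanger of the Golgi and endosomes, and read 2626 on the array labelled antisense against 1011 (scrambled) and 2167 (untreated). The scrambled array was the low one, with the array labelled antisense 2.6-fold above it, a log2 difference of 1.38 beyond the yardstick of 0.91, and 0.28 from untreated. Slc12a4, the potassium/chloride cotransporter KCC1, read 2113 on the array labelled antisense against 2127 (scrambled) and 1322 (untreated), so both arrays with an oligonucleotide were above untreated, by 0.68 and 0.69 and within the yardstick of 0.87. Slc12a2, the sodium/potassium/chloride cotransporter NKCC1, read 1427, 1105 and 1113 on the arrays labelled antisense, scrambled and untreated, and Slc4a2, the chloride/bicarbonate exchanger AE2, read 1342, 1666 and 1745. Slc4a1, the anion exchanger band 3 of red cells, read 1155, 832 and 759, within the yardstick between any 2 arrays. Of 5 erythroid markers measured, Klf1 was above the floor on the 3 arrays, Hba-a1 on 2 and Rhag on 1, while Alas2 and Epb42 were below the floor. Hba-a1 read 2233, 559.6 and 1628 on the arrays labelled antisense, scrambled and untreated, lowest on the scrambled, and Klf1 3060.5, 3985 and 2626, highest there. The list, values below the floor included, summed to 6116 on the array labelled antisense against 4922 (scrambled) and 4591 (untreated). The part of such cells in the Slc4a1 signal was not tested. Slc20a1, a phosphate carrier, read 741, 117 and 684, below the floor on the scrambled array alone. Slc12a1, Slc12a3, Slc12a5, Slc12a7, Slc26a1, Slc26a2, Slc34a1, Slc34a2, Slc4a3, Slc4a4, Slc4a5, Slc4a8, Slc9b2 and the 3 probe sets of the sodium/calcium exchanger Slc8a1 were not above it on any array.

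Among carriers of vitamins, Slc19a1 differed beyond the yardstick between the oligonucleotides. Slc19a1, the reduced folate carrier that also brings antifolate drugs into cells, read 2366 on the array labelled antisense against 941 (scrambled) and 1722 (untreated). The scrambled array was again the low one. The array labelled antisense was 2.51-fold above it, a log2 difference of 1.33 beyond the yardstick of 1.02, and differed from untreated by 0.46, within it. A family probe set of Slc19a1 was below 0 on each array. Slc23a3, a relative of the ascorbate carriers, read 713 on the array labelled antisense against 1337 (scrambled) and 1444 (untreated). It was low on the array labelled antisense, with log2 differences of -1.02 and -0.91 from untreated and scrambled that lie within the yardstick of 1.19. Slc48a1, a haem carrier of endosomes and lysosomes, read 1189, 1589.5 and 1702 on the arrays labelled antisense, scrambled and untreated. The ascorbate carriers Slc23a1 and Slc23a2, the folate carrier Slc46a1 and the biotin carrier Slc5a6 were not above the floor.

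Carriers of nucleotide sugars and related nucleotides feed glycosylation in the Golgi and endoplasmic reticulum. Slc35b1, an ATP/ADP exchanger of the endoplasmic reticulum, read 7589.6 on the array labelled antisense against 7792 (scrambled) and 9491 (untreated). Slc35b2, which carries the sulfate donor PAPS into the Golgi, read 8292 on the array labelled antisense against 7773 (scrambled) and 6591 (untreated), and its probe set with the suffix _r was above the floor on 2 arrays. Against untreated these differed by -0.32 and 0.33 on the array labelled antisense, in opposite directions and within the yardstick, and both were above untreated with scaling to the spike-in controls. Slc35a1, the CMP-sialic acid carrier, read 1068, 885 and 804 on the arrays labelled antisense, scrambled and untreated, and Slc35d1, a carrier of UDP-glucuronate, 1141, 1577 and 1094. Slc35c2, another Golgi member of the family, read 2040.3, 2312 and 2289. The UDP-galactose carrier Slc35a2 and Slc35g3 were above the floor on 1 array, Slc35e1 on 2 in 1 of its probe sets and on none in the other, and Slc35a4 and Slc35e4 on none.

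Few carriers of other organic solutes were above noise, and those of choline made up most of them. Slc44a1, a choline carrier, read 1862 on the array labelled antisense against 889 (scrambled) and 1128 (untreated), which puts the array labelled antisense 1.65-fold above untreated and 2.1-fold above scrambled, both within the yardstick of 1.23 on the log2 scale. Its relatives Slc44a2 and Slc44a4 read 871, 989.6 and 787 and 1195, 859 and 936 on the arrays labelled antisense, scrambled and untreated. Slc10a3, a relative of the bile acid carriers, read 1941, 2209 and 1963. Slc27a1, a fatty acid carrier, was above the floor on the scrambled array alone, at 424, 1459 and 539 on the same arrays, and at least 2.45-fold over each other array. That is 1.29 on the log2 scale, barely beyond a yardstick of 1.21 that this same difference sets through the mean level. With the floor at 3 robust standard deviations the difference was 0.71. Slc16a8 was above the floor on 2 arrays and Slc22a17 on 1. The lactate carrier Slc16a1 was below the floor on each array, at 305, -14.2 and 307. The same held for its relative Slc16a7, the creatine carrier Slc6a8, the organic ion carriers Slc22a2, Slc22a4, Slc22a5, Slc22a6, Slc22a12, Slc22a18, Slc22a21, Slc22a23 and Slc22a30, the fatty acid carriers Slc27a2, Slc27a3, Slc27a4 and Slc27a5, the bile acid carriers Slc10a1 and Slc10a2, and Slc10a6, Slc17a1 and Slc51a.

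Of the carriers classed under neurotransmitters by their substrates, Slc6a12, Slc6a13 and Slc6a2 had a probe set above the floor on the 3 arrays. Slc6a12, a betaine and GABA carrier, read 2417 on the array labelled antisense against 1742 (scrambled) and 1554 (untreated). Slc6a13, another GABA carrier, read 1150.0, 1253 and 1383 on these arrays, and Slc6a2, the noradrenaline carrier, 671, 1253 and 599 in 1 probe set, with the scrambled array 2.09-fold over untreated and within the yardstick. The other Slc6a2 probe set read 203, 758 and 462, so it exceeded the floor on the scrambled array alone. In the first probe set the untreated value of Slc6a2 lies barely above the floor. Slc18a3, Slc32a1, Slc6a3 and Slc6a4 were not above it. Of the adaptors, Slc9a3r1, which encodes the scaffold NHERF1, read 2323, 3604 and 2395, Slc4a1ap was above the floor on the untreated array alone, and Slc9a3r2 on none. Slc16a3, Slc28a2 and Slc40a1 were not analysed here.

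**Figure D2:**
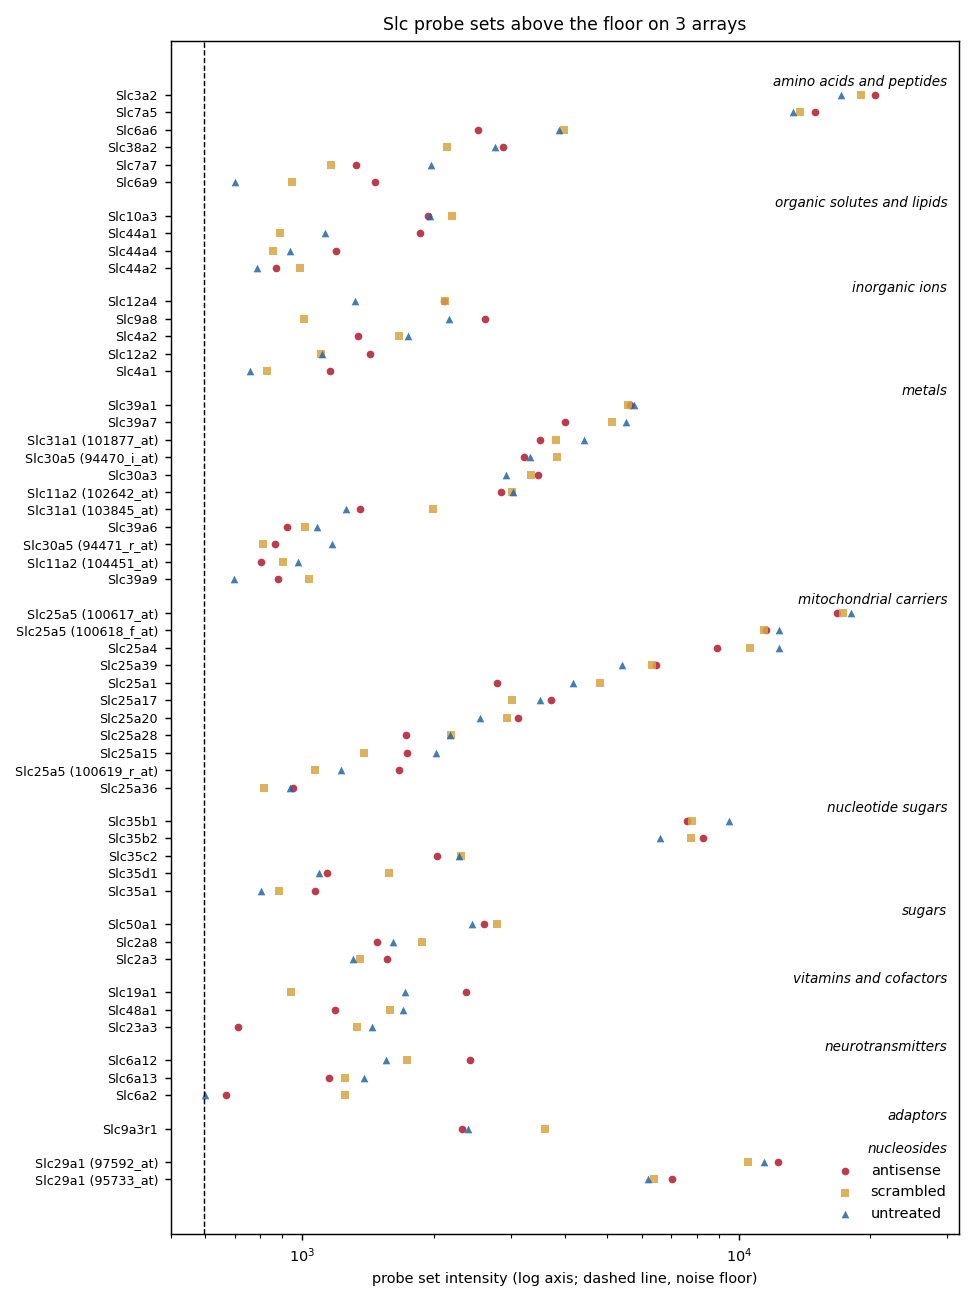
Intensity (log axis) of the 54 Slc probe sets above the noise floor of 595.9 (dashed line) on the 3 arrays, by substrate class; circles are the array labelled antisense, squares scrambled and triangles untreated, 1 array each. For Slc3a2, Slc7a5 and Slc39a1 the 3 symbols lie close together, and for Slc9a8 and Slc19a1 the scrambled array stands to the left.

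Few Slc probe sets differed by 2-fold between arrays. On the array labelled antisense, 1 of 177 Slc probe sets exceeded untreated by at least 2-fold, that of Slc6a9, where 1.34% of all probe sets with 1 symbol were, and 3 were at least 2-fold lower, those of Slc23a3, Slc25a1 and Slc25a3, where 1.1% were. With scaling to the spike-in controls these counts became 10 higher and 1 lower, where 8.10% and 0.292% of all were. Against scrambled, 4 were higher, those of Slc19a1, Slc41a1, Slc44a1 and Slc9a8, where 1.62% of all were, and 1 was lower, that of Slc27a1, where 1.43% were. With scaling to the spike-in controls 7 were higher and 1 lower, where 6.27% and 0.574% of all were. Between the controls, 2 were higher with scrambled oligonucleotide than without, Slc27a1 and Slc6a2, where 0.895% of all were, and 3 were lower, Slc25a3, Slc6a6 and Slc9a8, where 0.701% were. At 1.5-fold the array labelled antisense had 7 Slc probe sets higher and 8 lower than untreated, where 4.79% and 4.05% of all were. It had 7 higher and 7 lower than scrambled, where 5.2% and 4.93% were. The scrambled array had 5 higher and 7 lower than untreated, where 3.43% and 3.16% were. These comparisons share arrays, so a single high or low array enters several of them.

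**Figure D3:**
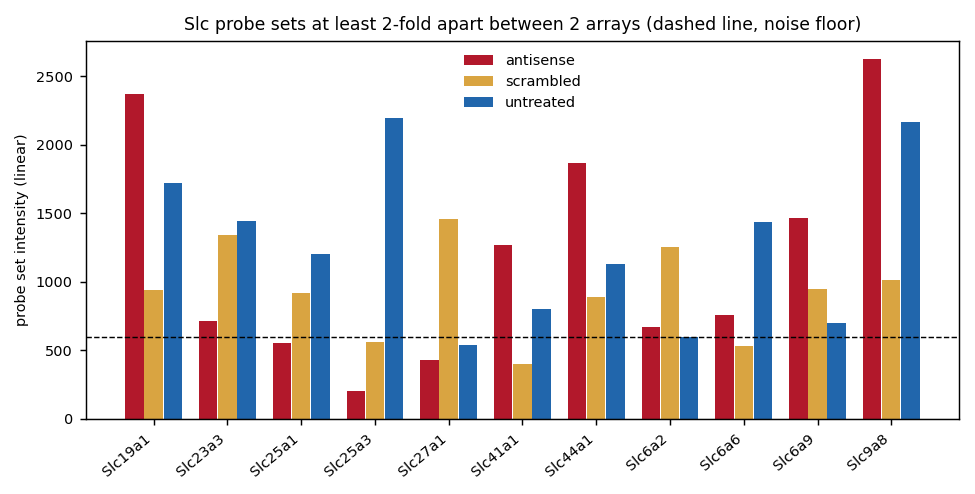
Intensity (linear axis, bars from 0) of the 11 Slc probe sets at least 2-fold apart between any 2 of the 3 arrays; bars are 1 array each and the dashed line is the noise floor of 595.9. The scrambled bar is lowest for Slc19a1, Slc41a1, Slc44a1, Slc6a6 and Slc9a8, and for Slc25a3 the untreated bar alone exceeds the floor.

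No Slc probe set was at least 2-fold apart from both controls in the same direction on the array labelled antisense, where 0.652% of all probe sets were higher and 0.496% lower than both. With scaling to the spike-in controls 6 were higher than both and 0 lower, where 4.25% and 0.146% of all were. At 1.5-fold, 4 were higher than both, those of Slc25a11, Slc41a1, Slc44a1 and Slc6a9, where 2.64% of all were, and 3 were lower, those of Slc23a3, Slc25a1 and Slc6a6, where 2.12% were. None of the 177 lay beyond its yardstick from both controls in 1 direction, where 1.28% of all were higher and 1.24% lower. Over the 54 Slc probe sets above the floor on the 3 arrays, the array labelled antisense differed by a median of 0.06 from untreated and 0.00 from scrambled (log2), beside 0.01 and 0.01 over the 3961 such probe sets with 1 symbol. The median absolute difference was 0.27 and 0.24, beside 0.24 and 0.26. Of the 54, 1 lay beyond the yardstick against untreated, Slc25a4, where 9.39% of the 3961 did, and 3 against scrambled, Slc9a8, Slc19a1 and Slc25a1, where 11.6% did. Between the controls, 1 of the 54, Slc9a8, lay beyond it, where 3.56% did. The yardstick was made from this same comparison of the controls, so that share was largely fixed in advance and is not like the other shares.

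**Figure D4:**
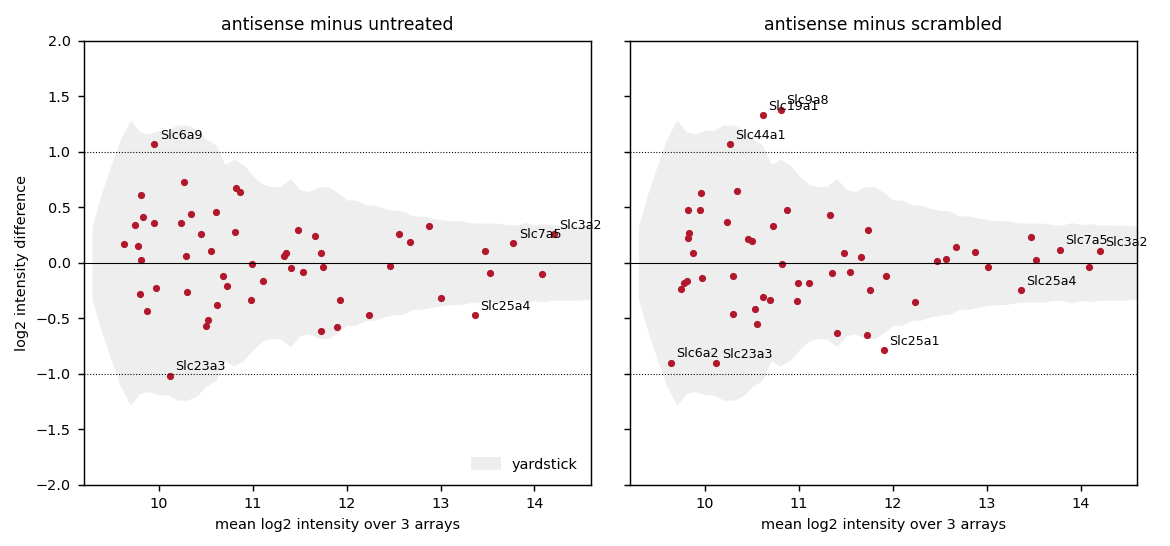
Log2 intensity difference of the array labelled antisense from untreated (left) and from scrambled (right) against mean log2 intensity, for the 54 Slc probe sets above the floor on the 3 arrays; the grey band is the yardstick and dotted lines mark 2-fold. Slc25a4 lies outside the band on the left, and Slc9a8, Slc19a1 and Slc25a1 on the right.

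Genes that work with the carriers were read from 4 lists, with the brightest probe set standing for each gene. The share above the floor over all, 38.5%, counts every probe set, so the counts by gene below are not like it. Over all probe sets with 1 symbol, between 0.701% and 1.62% were at least 2-fold apart in 1 direction of a comparison, and 0.652% were higher than both controls. Few or none in lists this short is thus no result about them. Of 14 accessory subunits, pumps and channels on the array, 5 were above the floor on the 3 arrays and none was at least 2-fold apart in any comparison. Bsg, the chaperone that brings lactate carriers to the membrane, read 19949 on the array labelled antisense against 22413 (scrambled) and 20856 (untreated). Atp1b3, a subunit of the sodium pump whose gradient drives coupled carriers, read 19149, 19890.2 and 19373, and Tfrc, the transferrin receptor, 9735, 9986 and 8581. Of 27 enzymes that act first on carried substrates, 18 were above the floor on the 3 arrays and none was 2-fold apart from untreated on the array labelled antisense. Ada, adenosine deaminase, read 1492 on the array labelled antisense against 3190.4 (scrambled) and 2479 (untreated), and was the single gene of the list 2-fold lower than scrambled. Another Ada probe set read 2036, 1616 and 2166.1, with the scrambled array lowest, so the probe sets disagreed in direction. Of 24 genes induced by ATF4 in the amino acid response, 19 were above the floor on the 3 arrays, with medians on the log2 scale of 0.15 from untreated and -0.01 from scrambled. Over the 3961 probe sets with 1 symbol above the floor on the 3 arrays, these medians were 0.01 and 0.01. In the list of ATF4 genes Vldlr, a lipoprotein receptor gene read by a probe set with the suffix _r, was the single gene 2-fold higher than both controls. It exceeded the floor on the array labelled antisense alone, at 1528, 124 and 499. Its other probe sets were below the floor on each array, at 7.9, 37.2 and 53.3 and at -737, -833 and -641. Asns, asparagine synthetase, read 2595 on the array labelled antisense against 2537 (scrambled) and 1704 (untreated). Both arrays with an oligonucleotide were above untreated, by 0.61 and 0.57 and within the yardstick of 0.70. Other genes of the list lay on either side of untreated. Of 25 transporters without an Slc name, 10 were above the floor on the 3 arrays, and Abcc5, an export pump of organic anions, was 2-fold lower than scrambled, at 1102, 2899 and 1987 on the same arrays.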

How the data were processed

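The deposited table holds linear intensity values for 3 arrays, 12654 probe sets each, of which 66 are controls. The deposited values have a mean of 1500 on each array after removal of the lowest and highest 2%, so the authors had scaled each array to this level, and between 24.8% and 27.9% of them are at or below 0. Column medians are 361, 380 and 366 on the antisense, scrambled and untreated arrays. Which software made them is not stated in the sources used here.

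Here the arrays were brought to 1 trimmed mean (2%) over the 12588 probe sets other than controls, floored at 595.9 and put on the log2 scale. No filter on low values was set: all 10276 probe sets with 1 symbol in the platform annotation were counted, 363 with several symbols and 1949 unlisted ones were not. All 177 Slc probe sets matched the RefSeq gene table by gene identifier, and 17 have a suffix (_s, _f, _r, _i, _g), as given to shared or family sets among others. Substrate classes were assigned by hand, largely by family. Values are given for carriers above the floor on the 3 arrays, those 2-fold apart in a comparison, those fixed by name, and genes whose probe sets disagree, and for a few others, and the rest are named without values. Of the list genes, Bsg, Atp1b3, Tfrc, Asns, Ada and Abcc5 were chosen after their values were seen. The members, classes, lists and markers were chosen with earlier results of these data known, and the floor is that of an earlier treatment of the same table. The 1.5-fold count was planned as an alternative, and counts beyond the yardstick were added after the values were seen. Counting was tested on simulated data with changes placed only in probe sets well above the floor, so that test does not cover carriers near it. Calculations used Python 3.11.15, numpy 2.4.6 and pandas 2.3.3. With 1 array in each group, precision is limited by the number of arrays.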

Additional observations from a re-analysis of the deposited data

How the results depend on the processing

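No paired analysis was possible because each group is 1 array. For the same reason no array could be left out. Of the counts of Slc probe sets recomputed under the alternatives, 32 stayed within 1.5 times the reported count and 29 did not. The count above the floor on the 3 arrays was 54, between 42 with a floor of 3 robust standard deviations and 70 with 1. The counts of probe sets at least 2-fold apart are small and moved with the floor. With the floor at 1 robust standard deviation, the array labelled antisense had 6 higher and 7 lower than untreated (3.15% and 3.16% of all probe sets with 1 symbol), 10 higher and 5 lower than scrambled (3.72% and 3.94%) and 3 higher than both (1.55%), and the scrambled array had 6 higher and 11 lower than untreated (2.76% and 2.35%). With the floor at 3 robust standard deviations, the array labelled antisense had 0 higher and 1 lower than untreated (0.808% and 0.496%) and 0 lower than scrambled (0.740%), and the scrambled array had 0 higher than untreated (0.428%). With scaling to the spike-in controls, the array labelled antisense had 10 higher and 1 lower than untreated (8.10% and 0.292%), 7 higher than scrambled (6.27%) and 6 higher than both (4.25%), and the scrambled array had 1 higher and 1 lower than untreated (0.983% and 0.379%). Among probe sets above the floor on the 3 arrays alone, a smaller set by construction, the array labelled antisense had 1 lower than untreated (1.49%) and 0 lower than scrambled (1.87%), and the scrambled array had 1 higher and 1 lower than untreated (1.26% and 0.808%). At 1.5-fold, which admits smaller differences by construction and whose shares over all stand with the results, the array labelled antisense had 7 higher and 8 lower than untreated, 7 higher and 7 lower than scrambled, and 4 higher and 3 lower than both, and the scrambled array had 5 higher and 7 lower than untreated. Why the spike-in scaling and the floor moved the other counts was not tested. Quantile normalization and leaving out suffixed probe sets kept each count within 1.5 times the reported one. Of the recomputed differences of named probe sets, 247 moved by less than the yardstick and 17 by more, all 17 upward on the array labelled antisense with scaling to the spike-in controls. No difference of at least 2-fold turned its sign under the alternatives run. For levels near 1000 a difference below 2.28-fold is within the yardstick.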

Other observations

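A probe set that the annotation gives to Slc22a28 and Slc22a30 together was outside the 177, since it names several genes. It read 965 on the array labelled antisense against 541 (scrambled) and 579 (untreated), so it was above the floor of 595.9 on the first array only.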
